A study of Caenorhabditis elegans with 12 samples.

Results

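Of the 46904 genes counted in *C. elegans*, 4 are described here: *pct-1* (WBGene00003961), *msp-76* (WBGene00003463), *srw-85* (WBGene00005832) and *scb-1* (WBGene00010407). They were picked because their counts lie above wild type in both the *gsr-1a* and the *trxr-2* single mutant. Every difference between a mutant strain and wild type is therefore given for these genes as a description, with no test. Tests are given for differences among the mutant strains, whose single-mutant libraries also took part in the choice, and for the genes that lie beside them on the chromosome.

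RNA-seq was performed on polyA RNA of whole young adults of 4 strains, with 3 libraries each. The strains are wild type N2, the single mutant *gsr-1 (syb266 mito)*, here *gsr-1a*, the single mutant *trxr-2 (tm2047)*, and a strain with both mutations (double mutant). The CRISPR allele *syb266* deletes the exon that encodes the mitochondrial targeting sequence of glutathione reductase, so the cytosolic isoform remains, and *tm2047* is a null allele of mitochondrial thioredoxin reductase. Both alleles lie on chromosome III, whereas the 4 genes lie on chromosomes IV and V. The study's strain list gives the *gsr-1a* strain as outcrossed to N2. The study's methods state that its VZ strains were outcrossed to N2, with fewer rounds for those made by CRISPR. The strain list gives the double mutant as a cross that joins the *gsr-1a* strain with a descendant of the *trxr-2* strain. The double mutant thus shares ancestry with both single mutants. The wild type is a single stock. The study describes its RNA-seq as independent experiments with biological replicates, without saying which libraries of the strains were grown side by side.

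The 4 genes have unlike roles. PCT-1, a PCTAIRE-type cyclin-dependent kinase, acts in neurons with cyclin Y and CDK-5 to place synaptic vesicle components in the axon. MSP-76 is a major sperm protein, one of a family of nearly identical small proteins that form the cytoskeleton on which the amoeboid nematode sperm crawls and that also signal to oocytes. SRW-85 belongs to the serpentine receptors of class W, a family of putative chemoreceptors. *scb-1* is named for its part in the sensitivity of natural worm strains to the chemotherapeutic bleomycin, a drug that breaks DNA.

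The 12 libraries held 12114187 to 19688212 counted read pairs, with a median of 16360615. The labels held for *trxr-2*, which had at most 1 count in any library of the *trxr-2* and double mutants against 706 counts over wild type. The count of *gsr-1* tests no label, since most of the gene remains. In replicate 1 of wild type the 6 yolk protein genes took 0.342% of all counts and in replicate 1 of *trxr-2* 1.79%, against 3.57% to 6.78% in the other 10 libraries. Values without these libraries are given for *scb-1* and *msp-76*.

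*pct-1* was close to 2 times wild type in every mutant library. It lies at chromosome IV:8176479-8188879 on the plus strand (WBcel235), and a later annotation of the same build gives its longest transcripts 11 exons. Its counts were 775, 1007 and 1051 in replicates 1, 2 and 3 of wild type. They were 1298, 2227 and 2238 in *gsr-1a*. They were 1360, 1717 and 1752 in *trxr-2*. They were 1645, 2062 and 1589 in the double mutant. Set to CPM, the count relative to the TMM-normalized library size, wild type lay between 51.2 and 56.2 and the 9 mutant libraries between 102.2 and 119.5, so the groups did not overlap. The means were 54.1 ± 2.58 CPM for wild type, 117 ± 3.31 for *gsr-1a*, 112 ± 8.70 for *trxr-2* and 108 ± 3.72 for the double mutant (± SD over 3 libraries, n = 3). On the log2 scale the difference from wild type was 1.11 for *gsr-1a*, 1.04 for *trxr-2* and 0.998 for the double mutant. The double mutant thus stood no further from wild type than either single mutant.

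*scb-1* showed the same arrangement at a lower level. The gene lies at chromosome V:11118721-11119730 on the minus strand, and its longer transcript has 4 exons. Its counts were 167, 172 and 161 in the wild-type replicates. They were 263, 436 and 397 in *gsr-1a*. They were 441, 301 and 324 in *trxr-2*. They were 479, 430 and 354 in the double mutant. The highest wild-type library, replicate 1 with 12.1 CPM, stayed below the lowest mutant library with 19.8 CPM. The means were 9.77 ± 2.16 CPM for wild type, 22.4 ± 1.09 for *gsr-1a*, 25.01 ± 7.15 for *trxr-2* and 26 ± 4.77 for the double mutant (± SD over 3 libraries, n = 3). The log2 differences from wild type were 1.2, 1.36 and 1.42 in that order of strains. The 2 libraries with low yolk transcripts were the highest of their strains for *scb-1*. Without replicate 1 of wild type the log2 differences were 1.38, 1.54 and 1.59, and without replicate 1 of *trxr-2* that of *trxr-2* was 1.1.

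*msp-76* was nearly without counts in wild type and well counted in all 9 mutant libraries. It is a gene of 1 exon at chromosome IV:9688982-9689433, on the plus strand. The wild-type replicates held 0, 1 and 6 counts. The *gsr-1a* replicates held 513, 445 and 372 counts. The *trxr-2* replicates held 319, 163 and 123 counts. The double mutant replicates held 1198, 604 and 1075 counts. The means were 0.116 ± 0.155 CPM for wild type, 29.4 ± 13.4 for *gsr-1a*, 14.4 ± 8.41 for *trxr-2* and 60.7 ± 24.6 for the double mutant (± SD over 3 libraries, n = 3). Against the 7 wild-type counts in all, the ratio to wild type was 204 in *gsr-1a* (exact 95% interval 98.6 to 508). The ratio was 105 in *trxr-2* (50.9 to 263) and 443 in the double mutant (215 to 1102). These intervals cover counting error only. Without replicate 3 of wild type, which held 6 of the 7 counts, the ratios were 871 (156 to 34424), 450.5 (80.5 to 17822) and 1891 (339 to 74713) in that order of strains. Without replicate 1 of wild type, a library with low yolk transcripts, they fell to 150, 77.8 and 327. Without replicate 1 of *trxr-2*, the other such library, the ratio in *trxr-2* fell to 72.

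*srw-85* had no count in wild type. It lies at chromosome V:19429440-19431687 on the minus strand, with 5 exons in its coding transcript. Its counts were 0, 0 and 0 in wild type and 10, 39 and 12 in *gsr-1a*. They were 22, 15 and 27 in *trxr-2* and 59, 69 and 47 in the double mutant. The means were 1.19 ± 0.768 CPM for *gsr-1a*, 1.49 ± 0.450 for *trxr-2* and 3.57 ± 0.426 for the double mutant (± SD over 3 libraries, n = 3). A count of 0 over the wild-type group allows up to 3 counts, or 0.0569 CPM. Against that floor, the summed counts of the 3 libraries over their summed library sizes were at least 21.8-fold higher in *gsr-1a* and at least 26-fold higher in *trxr-2*. They were at least 62.8-fold higher in worms with both mutations. Replicate 2 of *gsr-1a* held 39 of its 61 counts, and without it the bound for *gsr-1a* was 12.8-fold. Without replicate 3 of wild type, which lowers the depth behind the floor, the bounds were 13.3-fold, 15.9-fold and 38.3-fold. This remains a gene of low counts, with at most 69 read pairs in a library.

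**Figure D1:**
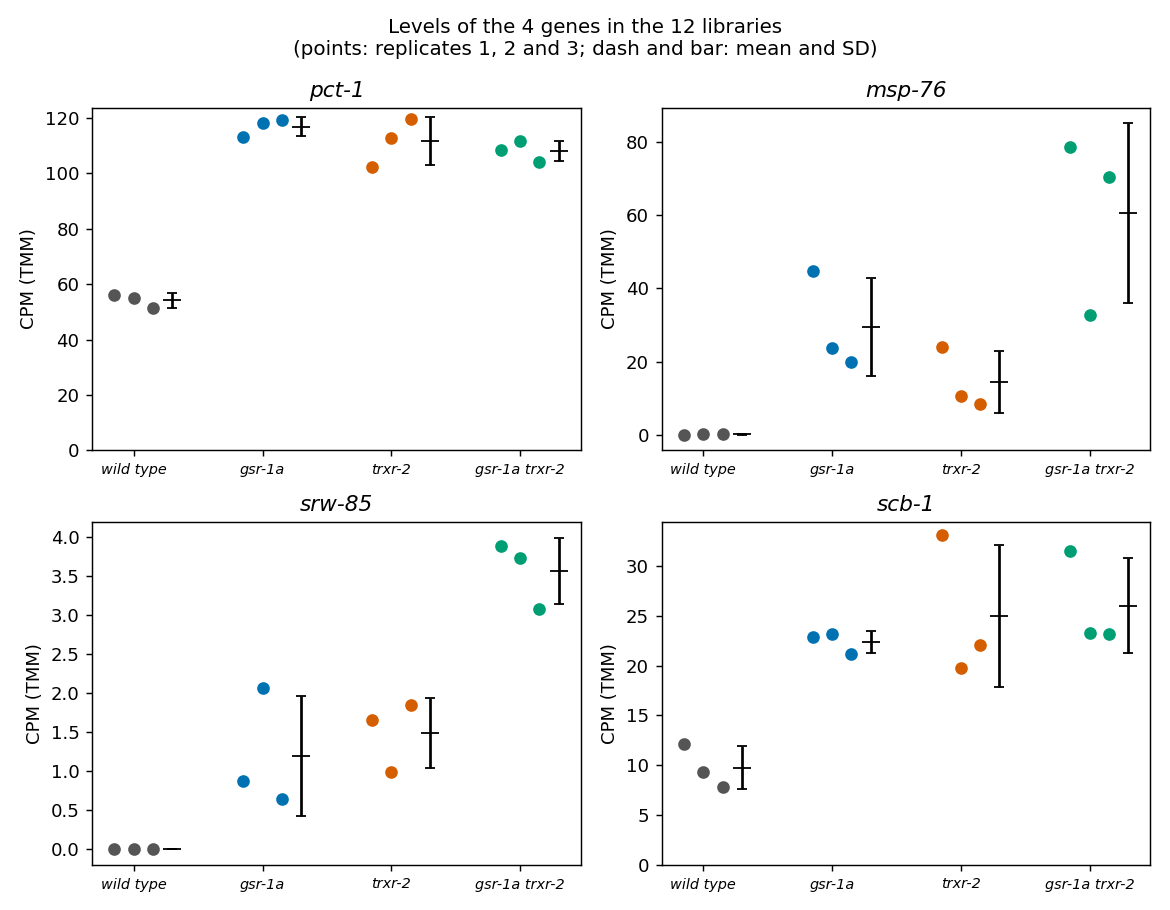
Levels of *pct-1*, *msp-76*, *srw-85* and *scb-1* in CPM (vertical axis, TMM-normalized) in the 4 strains (horizontal axis), with 1 point per library and the mean and SD beside the points. In each panel the 3 wild-type libraries lie below all 9 mutant libraries, and only for *msp-76* and *srw-85* is the double mutant mean far above those of both single mutants.

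The 4 genes were not alone in separating wild type from the mutant strains. Of 15004 genes tested, 79 (0.527%) had all 9 mutant libraries above all 3 wild-type libraries and 350 (2.33%) had all 9 below, and the 4 genes are among the 79 by the way they were picked. By the rise of the mutant mean over wild type, *srw-85* and *msp-76* held ranks 1 and 2, while *scb-1* held rank 199 and *pct-1* rank 563. These ranks use the values by which the genes were picked. Wild type had no count of *srw-85*, so its fitted rise, and with it rank 1, depends on the prior count.

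The next question was whether the level of these genes differs among the mutant strains, a contrast that sets no strain against wild type. Between the double mutant and the mean of both single mutants, 2 of the 4 genes were called higher (edgeR's quasi-likelihood test, adjusted over all genes by Benjamini-Hochberg), where 11.7% of all genes were called higher. *msp-76* was higher in the double mutant by 1.57 on the log2 scale (SE 0.38, edgeR adjusted p = 0.0149). *srw-85* was higher by 1.40 (SE 0.34, edgeR adjusted p = 0.0215), and its 3 double mutant libraries lay above all 6 single-mutant libraries. The call for *msp-76* was lost without replicate 1 of the double mutant (log2 difference 1.34, adjusted p = 0.0849) and without its replicate 3 (1.44, adjusted p = 0.0713). The call for *srw-85* was lost without any single library of the double mutant, with log2 differences of 1.34, 1.36 and 1.49 and adjusted p of 0.0877, 0.0640 and 0.0561.

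For *pct-1* the double mutant differed from the mean of the single mutants by -0.08 on the log2 scale (edgeR adjusted p = 0.618), and the 95% interval reached from -0.26 to 0.10. For *scb-1* the difference was 0.14 (edgeR adjusted p = 0.719), with an interval from -0.27 to 0.54. A further rise of 2 times in the double mutant lies outside both intervals. Expressed as a departure from adding both single-mutant differences on the log2 scale, a measure that uses wild type and is given without a test, the double mutant fell short by 1.16 for *pct-1* and by 1.14 for *scb-1*.

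Between *gsr-1a* and *trxr-2*, none of the 4 genes was called by edgeR (0.0533% of all genes were), while 1, *msp-76*, had an unadjusted p under 0.05. DESeq2 and edgeR's likelihood ratio test called none either. *msp-76* was higher in *gsr-1a* by 1.03 on the log2 scale (95% interval 0.01 to 2.05, edgeR adjusted p = 0.767). This difference was 1.61 without replicate 1 of *trxr-2*, the library with low yolk transcripts, and 0.603 without replicate 1 of *gsr-1a*. The interval was -0.14 to 0.28 for *pct-1*, -0.63 to 0.31 for *scb-1* and -1.26 to 0.67 for *srw-85*. A difference of 2 times between the single mutants thus lies outside the interval for *pct-1* and *scb-1*, but not for *msp-76* and *srw-85*. Tested for any difference among the 3 mutant strains, *msp-76* alone of the 4 passed (edgeR adjusted p = 0.0308, where 10.7% of all genes passed). The values of the others were 0.828 for *pct-1*, 0.876 for *scb-1* and 0.0632 for *srw-85*. The call for *msp-76* was lost without replicate 2 of *gsr-1a*, replicate 2 or 3 of *trxr-2*, or replicate 1 or 3 of the double mutant, at edgeR adjusted p of 0.0522 to 0.128. Fitted on the 3 mutant strains without wild type, *srw-85* passed as well (edgeR adjusted p = 0.0425), beside 0.0226 for *msp-76*.

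**Figure D2:**
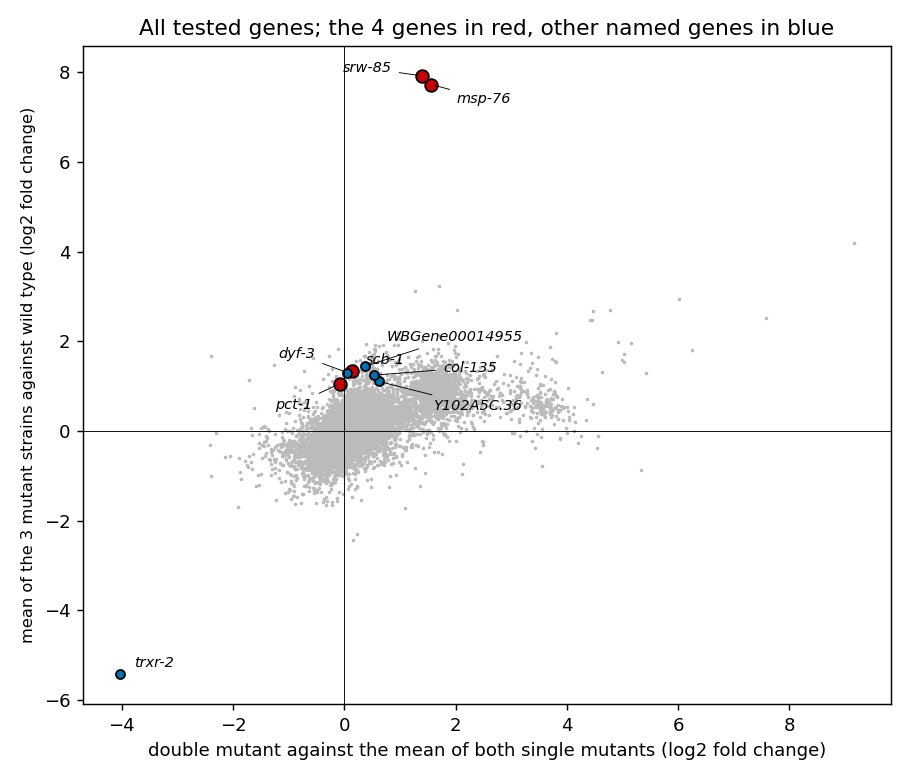
Log2 fold change of the mean of the 3 mutant strains against wild type (vertical axis) against that of the double mutant against the average of the single mutants (horizontal axis), with 1 point per tested gene. *pct-1* (1.05 and -0.08) and *scb-1* (1.33 and 0.14) lie above wild type with no further shift in the double mutant, and *msp-76* and *srw-85* lie far above all other genes, although for *srw-85* the fitted vertical value depends on the prior count, since wild type had no count.

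*msp-76* can be set against its own family, which no other of the 4 genes allows. The files hold 31 *msp* genes with a number, of which 26 had enough counts to be tested. The other 25 were expressed in wild type, at 202 to 284 CPM summed over the genes, while *msp-76* was at 0 to 0.292 CPM. As a share of all counts of the 26 genes, *msp-76* took 0%, 0.0230% and 0.103% in wild type. It took 6.10%, 5.25% and 5.29% in *gsr-1a*. It took 6.15%, 5.62% and 5.29% in *trxr-2* and 5.31%, 5.14% and 5.30% in the double mutant. Over all mutant libraries pooled the share was 5.41% (exact 95% interval 5.26 to 5.56), against 0.0540% (0.0217 to 0.111) over wild type. These intervals cover counting error only and not the spread between libraries, which had an SD of 0.38 percentage points over the 9 mutant libraries. The difference from wild type is a description, since the gene was picked by it. The share thus stayed between 5.14% and 6.15% in 9 libraries in which the summed level of the other *msp* genes ran from 150 to 1405 CPM. For each of the other 25 genes, the share of *msp* counts in the mutants was 0.782 to 1.35 times that in wild type.

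The family as a whole moved with the double mutant. All 25 other *msp* genes were called higher in the double mutant than in wild type, with a median log2 difference of 2.19, against 0.03 over all genes tested, where 12.5% were called higher. All 25 were also called higher than the mean of both single mutants, by 1.45 to 2.04 on the log2 scale with a median of 1.74, and the value of *msp-76*, 1.57, lies within that range. In the single mutants edgeR, DESeq2 and the likelihood ratio test called none of the 25, with medians of 1.01 for *gsr-1a* and -0.07 for *trxr-2*, and 22 and 0 genes were at an unadjusted p under 0.05. The corresponding differences of *msp-76* were 7.71 and 6.69. Of all genes edgeR called only 0.0267% in *gsr-1a* and 0.0666% in *trxr-2*. Read pairs that fit several places were left out of the counts, so near-identical members of this family have lost reads, and levels of single members are uncertain.

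**Figure D3:**
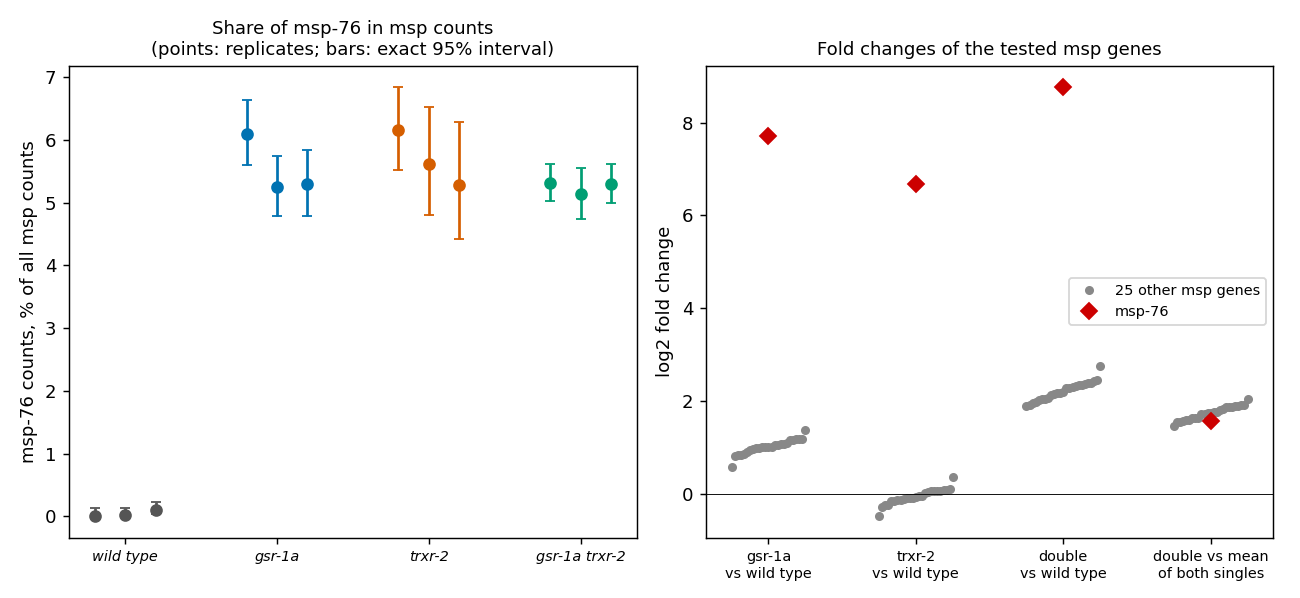
Left, *msp-76* counts as a percentage of the counts of all 26 tested *msp* genes in each library, with exact 95% intervals, and right, log2 fold changes of *msp-76* (diamonds) and of the other 25 *msp* genes (points) in 4 comparisons. The share lies at 0% to 0.103% in wild type and at 5.14% to 6.15% in the mutants, and *msp-76* leaves the family in each comparison with wild type but not in the double mutant against the single mutants.

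Other sperm genes moved as the *msp* family did. In the double mutant 12.5% of all genes were called higher than in wild type and 6.3% lower. Of 21 tested genes with roles in sperm formation, 17 were called higher there and none lower. Those with the smallest adjusted p were *msd-1*, whose product belongs to the sperm cytoskeleton (log2 difference 2.67, edgeR adjusted p = 0.00124), *ssp-10* (2.40, edgeR adjusted p = 0.00142), the sperm fate gene *fog-3* (2.51, edgeR adjusted p = 0.00196) and the sperm phosphatase gene *gsp-4* (2.25, edgeR adjusted p = 0.00212). None was called in either single mutant by edgeR, where 9 for *gsr-1a* and 1 for *trxr-2* had an unadjusted p under 0.05, and DESeq2 called 0 and 1. Of all genes edgeR called only 0.0267% in *gsr-1a* and 0.0666% in *trxr-2*. Summed over 6 tested sperm markers of 7, of which each had counts in every strain, the level was 13.5 to 28.1 CPM in wild type, 34.1 to 50.3 with *gsr-1a* lost, 16.1 to 24.1 with *trxr-2* lost and 58.7 to 116 with both lost. The *trxr-2* range overlaps wild type, whereas *msp-76* in *trxr-2* was 8.39 to 24.0 CPM against at most 0.292. In whole animals, more sperm and more transcript per sperm cannot be told apart.

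*srw-85* stood alone in its family. Of the other 108 *srw* genes, 50 had no count in any library, and none passed the filter on low counts. The most counted of them, *srw-86* on the same arm of chromosome V, had 32 counts over the 12 libraries, 4 of them from wild type, 4 from *gsr-1a*, 7 from *trxr-2* and 17 from the double mutant. All 108 together had 90 counts from wild type, 58 from *gsr-1a*, 65 from *trxr-2* and 91 from the double mutant. The wild-type sum of the family without *srw-85* thus lay above those of the single mutants and 1 count below that of the double mutant.

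No difference was called in the partners of *pct-1*. Cyclin Y (*cyy-1*) differed from wild type by 0.00 to -0.11 on the log2 scale in the 3 strains (SE 0.14 each), and *cdk-5* by -0.02 to 0.13 (SE 0.09 each). Of 26 tested genes for cyclin-dependent kinases and cyclins other than *pct-1*, none was called in a single mutant by edgeR, DESeq2 or the likelihood ratio test, with 1 for *gsr-1a* and 2 for *trxr-2* at an unadjusted p under 0.05. In the double mutant 2 were called lower, the G1 kinase gene *cdk-4* (log2 difference -0.75, edgeR adjusted p = 0.00502) and the mitotic kinase gene *cdk-1* (-0.50, edgeR adjusted p = 0.0293), and none higher. Of all genes 6.3% were called lower in the double mutant, a share near that of this list, and 12.5% higher. DESeq2 called 6 of the 26 there and the likelihood ratio test 2. In the single mutants edgeR called only 0.0267% of all genes for *gsr-1a* and 0.0666% for *trxr-2*. The 10 neuron markers summed to 307 to 341 CPM for wild type, 342 to 359 for *gsr-1a*, 309 to 359 for *trxr-2* and 379 to 435 for the double mutant, a far smaller difference than that of *pct-1*.

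For *scb-1*, 29 genes of the DNA damage response and repair served as a list of related function. By edgeR none of them was called in any strain against wild type, with 0 for *gsr-1a*, 1 for *trxr-2* and 6 for the double mutant at an unadjusted p under 0.05. DESeq2 called 3 in the double mutant and none in the single mutants. The median log2 difference was 0.06, -0.04 and -0.13 in *gsr-1a*, *trxr-2* and the double mutant, beside 0.00, -0.04 and 0.03 over all genes tested.

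Chromosomal neighbours were compared next, with the 10 nearest tested genes on each side of each gene, 80 in all. They were chosen by position, so their differences from wild type can be tested. No neighbour was called in *gsr-1a* (0.0267% of all genes were) and none in *trxr-2* (0.0666%) by edgeR, with 9 and 3 at an unadjusted p under 0.05. DESeq2 and the likelihood ratio test called none in *gsr-1a* and each called 1, *C07G1.7*, in *trxr-2*. In the double mutant 18 were called higher (22.5%) and 3 lower, where 12.5% of all genes were called higher and 6.30% lower. For none of the 80 did all 9 mutant libraries lie above wild type, where 0.527% of all genes did. For 1, the p38 kinase gene *pmk-1* near *pct-1*, all 9 lay below, at 16 to 22.2 CPM against 24.7 to 27.1. Of all genes 2.33% lay below, so neither count sets the neighbours apart.

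Beside *pct-1*, the gene *wsp-1* starts 25 bp after its end on the opposite strand and encodes the actin regulator WASP. Its log2 difference from wild type was 0.40 for *gsr-1a* (95% interval -0.15 to 0.95), 0.28 for *trxr-2* (-0.28 to 0.83) and 0.30 for the double mutant (-0.25 to 0.85). The 95% intervals of *pct-1* itself began at 0.899, 0.833 and 0.787 in that order of strains. They overlapped those of *wsp-1* in *gsr-1a* and the double mutant and nearly met it in *trxr-2*. *pct-1* was picked by its single-mutant differences, so this is a description and no test. On the other side the nearest gene of the files is the small RNA gene *C07G1.10*, with no count, and the nearest tested gene is the lectin gene *clec-52*, 7666 bp away, which fell in the double mutant by 0.98 (edgeR adjusted p = 0.0278). A non-coding RNA gene inside *pct-1* on the opposite strand, *C07G1.13*, had no count. Within 10 neighbours on each side, *B0218.5*, *B0218.7*, *C07G1.6* and *C07G1.7* rose in the double mutant by 1.91 to 2.79, and *clec-51* and *pmk-1* fell by 0.75 and 0.47.

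Beside *msp-76*, the pseudogene WBGene00014996 lies 590 bp to the left on the opposite strand, and *sdz-36* starts 1499 bp to the right on the same strand. WBGene00014996 had 11 counts over wild type, 46 over *gsr-1a*, 8 over *trxr-2* and 85 over the double mutant, where it rose by 3.07 on the log2 scale (edgeR adjusted p = 0.00676). In *trxr-2*, where *msp-76* had 605 counts, this neighbour differed by -0.13 (95% interval -2.0 to 1.73). *sdz-36* differed by 0.01 in *gsr-1a* (-0.63 to 0.64) and 0.03 in *trxr-2* (-0.62 to 0.67). The histone gene *htas-1*, *chca-1*, the adenine nucleotide translocase gene *ant-1.3* and *K01H12.4* rose in the double mutant by 1.90 to 2.33. In *trxr-2* these 5 neighbours differed from wild type by -0.08 to -0.33 and none was called. In *gsr-1a* WBGene00014996 differed from wild type by 2.17 (95% interval 0.718 to 3.63, edgeR adjusted p = 0.504). *htas-1*, *ant-1.3* and *K01H12.4* differed there by 1.098, 0.684 and 0.681, and *chca-1* by -0.166. None of the 5 was called by edgeR in *gsr-1a* either.

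Beside *srw-85*, *C25F9.11* ends the closest, 754 bp away on the same strand. It had 5, 4 and 4 counts for wild type, 5, 7 and 6 for *gsr-1a*, 7, 4 and 0 for *trxr-2* and 74, 87 and 54 for the double mutant. Its rise in the double mutant was 4.09 on the log2 scale (SE 0.52, edgeR adjusted p = 0.000787), and its single-mutant differences were 0.55 (95% interval -0.85 to 1.95) and 0.04 (-1.47 to 1.55). The nearest gene on the other side, *C25F9.2*, had 8, 5, 8 and 16 counts over the 4 strains and was not tested. A pseudogene within the span of *srw-85* on the opposite strand, WBGene00014686, had no count. In all, 9 of the 20 neighbours of *srw-85* were called higher in the double mutant than in wild type, where 12.5% of all genes were. Against the mean of both single mutants 9 were called higher as well, where 11.7% of all genes were. In that comparison the median of the 20 was 1.09 on the log2 scale and that of all genes 0.01. The value of *srw-85* in that comparison was 1.40. The neighbours that rose were *Y43F8A.2*, *C25F9.4*, *C25F9.5*, *C25F9.11*, *C25F9.14*, *M04C3.2*, *Y43F8B.14*, *Y43F8B.13* and *Y43F8B.24*.

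Beside *scb-1* no neighbour was called by edgeR. The end of the ubiquitin protease gene *math-33*, on the opposite strand, overlaps that of *scb-1* by 98 bp, and counting used strand and left out pairs that overlap several genes. *math-33* differed from wild type by 0.41 for *gsr-1a* (95% interval -0.18 to 0.997), 0.26 for *trxr-2* (-0.33 to 0.85) and 0.25 for the double mutant (-0.34 to 0.84). *mboa-2*, an acyltransferase gene 83 bp away on the strand of *scb-1*, differed by -0.07 (-0.39 to 0.26), -0.20 (-0.53 to 0.12) and -0.32 (-0.64 to 0.01). The 95% intervals of *scb-1* itself began at 0.719, 0.876 and 0.934 in that order of strains. In *gsr-1a* that interval overlapped the one of *math-33*. *scb-1* was picked by its single-mutant differences, so this is a description and no test. Of the 20 neighbours edgeR called none in any strain, with 0, 0 and 2 at an unadjusted p under 0.05 in *gsr-1a*, *trxr-2* and the double mutant, and DESeq2 called 1 in the double mutant. Of all genes edgeR called 0.0267%, 0.0666% and 18.8% in that order of strains.

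**Figure D4:**
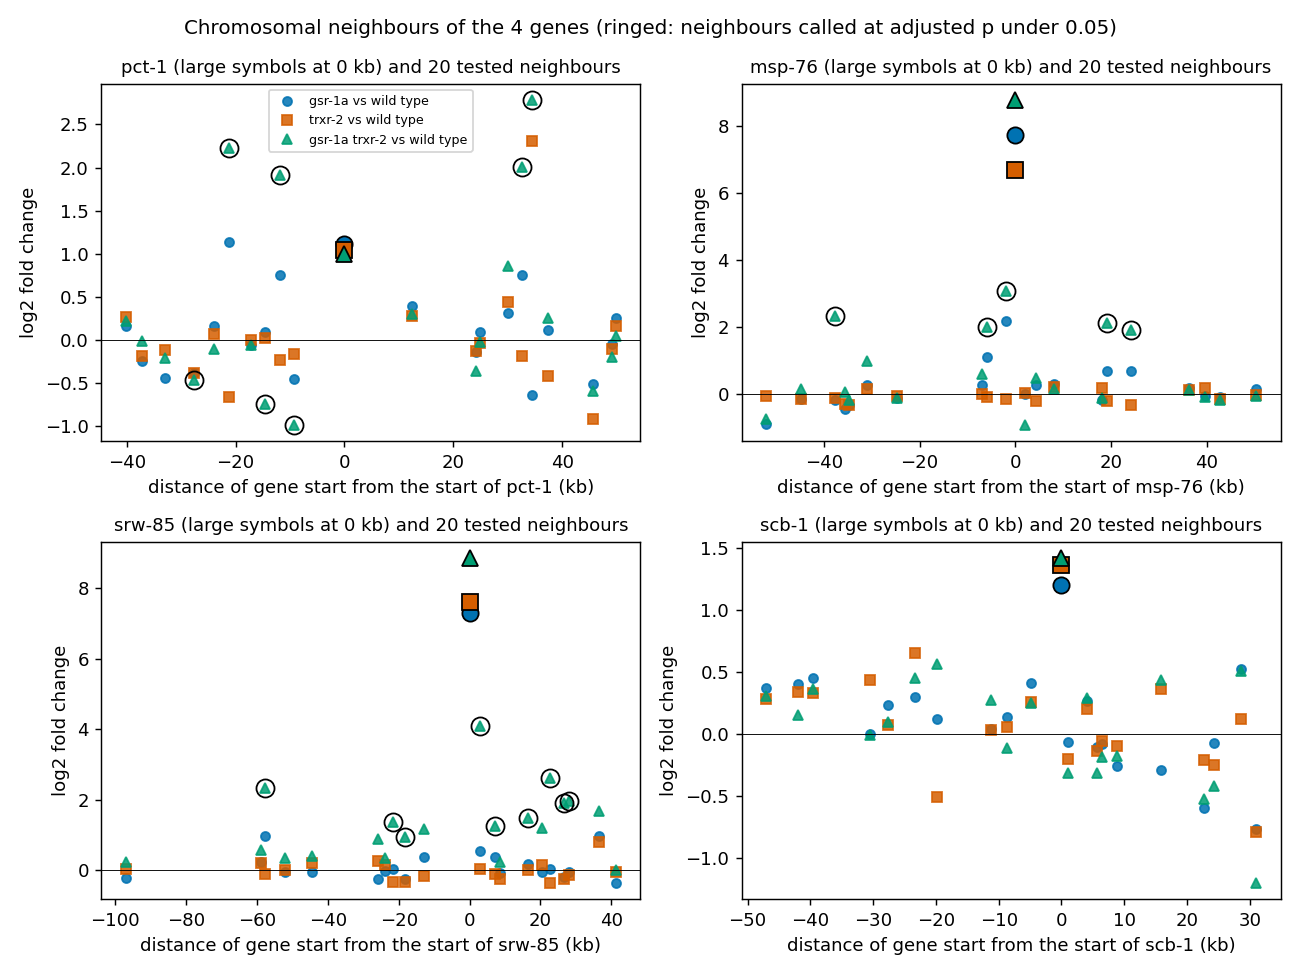
Log2 fold changes against wild type (vertical axis) of the 4 genes and of the 10 nearest tested genes on each side, by distance from the start of the gene (horizontal axis, kb), with 1 colour and shape per mutant strain. No neighbour is ringed, that is called by edgeR's quasi-likelihood test, in *gsr-1a* or *trxr-2* (DESeq2 called *C07G1.7* near *pct-1* in *trxr-2*). The ringed values of the double mutant number 7 near *pct-1*, 5 near *msp-76*, 9 near *srw-85* and 0 near *scb-1*. Of all genes 18.8% were called in the double mutant. The fitted values of *srw-85* itself are no bound, since wild type had no count.

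Genes of the same pattern were sought over all tested genes by Pearson's r of log2 CPM over the 12 libraries, which is a description. The 4 genes were among the nearest of each other: *srw-85* was nearest to *msp-76* (r = 0.934) and *scb-1* to *srw-85* (r = 0.908), while the gene nearest to *pct-1* was *dyf-3* (r = 0.912), a gene of ciliated sensory neurons on chromosome IV, followed by *msp-76* (r = 0.910). The other genes among the 5 nearest of any of the 4 were the collagen gene *col-135*, *Y102A5C.36*, the pseudogene WBGene00014955 and the cadherin gene *cdh-7*. The likeness rests on the step between wild type and the mutants: within the 9 mutant libraries r between pairs of the 4 genes ran from -0.67 (*pct-1* and *scb-1*) to 0.50 (*msp-76* and *srw-85*).

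A search for every gene in which wild type alone stands apart gave few further genes. Against the mean of the 3 mutant strains edgeR called 18 genes higher (0.12%) and 17 lower (0.113%), and 9 and 12 of these had no overlap between the 3 wild-type and 9 mutant libraries. The 9 higher genes, the 4 described here included, lie on chromosomes IV (5 genes) and V (4 genes). The wider sets lie on every nuclear chromosome: of the 18 called higher, 6 were on IV and 7 on V, and of the 79 with all mutant libraries above wild type, 24 were on IV and 16 on V. Of the 15004 genes tested, 2554 were on IV and 2872 on V. The 4 genes described here, on IV and V, are in the sets of 9, 18 and 79 through the values by which they were picked. The 12 lower genes, *trxr-2* among them, lie on chromosomes I, II and III (2 each), V (3) and X (3). With a log2 difference over 1 and an unadjusted p over 0.05 for any difference among the mutants, 4 genes remained. They were *pct-1* and *scb-1*, which were picked by their difference from wild type, and *dyf-3* and WBGene00014955, which were not. No gene was lower under these limits by edgeR, while 34 were at an unadjusted p under 0.05.

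*dyf-3* was at 1.67 ± 0.208 CPM for wild type, 4.18 ± 1.27 for *gsr-1a*, 4.02 ± 0.311 for *trxr-2* and 4.24 ± 0.635 for the double mutant (± SD over 3 libraries, n = 3), higher in the mutants by 1.30 on the log2 scale (edgeR adjusted p = 0.0337). WBGene00014955 was at 13.8 ± 4.06, 36.5 ± 4.99, 32.4 ± 10.02 and 44.4 ± 3.41 CPM in the same order, higher by 1.44 (edgeR adjusted p = 0.0239). This pseudogene (chromosome V:16929167-16930063, plus strand) and *Y102A5C.36* (chromosome V:16926920-16927445, minus strand), higher by 1.1 (edgeR adjusted p = 0.0152), are 1722 bp apart with 1 pseudogene, WBGene00014954, between them. WBGene00014954, named here after its counts were seen, had 318 counts over wild type, 739 over *gsr-1a*, 557 over *trxr-2* and 843 over the double mutant, and its *trxr-2* replicate 1, at 6.39 CPM, lay below the highest wild-type library at 7.19 CPM.

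Whether a difference carried by the wild-type animals sets these 4 genes apart cannot be told apart, in this design, from an effect of losing either mitochondrial reductase. All 3 comparisons with wild type use the same 3 wild-type libraries of 1 stock, so each of them carries any difference of that stock. Values given above are repeated here, and a cause was not tested. *pct-1* and *scb-1* did not go further in the double mutant, by intervals that leave out a factor of 2. *msp-76* and *srw-85* did, by 1.57 and 1.40 on the log2 scale over the single mutants (edgeR adjusted p = 0.0149 and 0.0215). Both calls were lost in some fits without 1 library. *msp-76* took a near-constant share of *msp* counts in all 9 mutant libraries and almost none in wild type. In the single mutants edgeR called none of the 80 neighbours. It called only 0.0267% of all genes in *gsr-1a* and 0.0666% in *trxr-2*, so none is the expected number among 80. *C07G1.7* near *pct-1* was called in *trxr-2* by both DESeq2 and the likelihood ratio test.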

How the data were processed

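For each of 12 libraries the authors deposited raw counts, 1 whole number of read pairs per gene. Per the file headers and the submitters' processing notes, HISAT2 aligned the reads to WBcel235 and featureCounts 2.0.0 assigned them by strand to gene spans, with introns, as given by Ensembl release 97. Pairs with several alignments or overlapping several genes were dropped. Gene symbols matched 93.8% of the identifiers. The coordinates are those of the files.

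Counts were TMM-normalized with edgeR 4.0.16 under R 4.3.3, filtered by edgeR's own rule (15004 genes kept), and fitted with 1 mean per strain over all 12 libraries (8 residual degrees of freedom). Quasi-likelihood tests were adjusted by Benjamini-Hochberg over all genes at 0.05, and the 95% intervals of log2 differences use the same fit. DESeq2 1.42.0 was an alternative. The procedure was tested on simulated data.

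The 4 genes, the related gene lists and the tests were chosen with earlier results of these data known. Named genes are the 4 genes, the 2 mutated genes, their nearest genes, neighbours called in a strain, the 5 genes most like each in pattern (prior count 2), genes with wild type alone apart, and called genes of a list, at most 4 each. Exon numbers come from Ensembl 115 on the same build.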

Additional observations from a re-analysis of the deposited data

Results flagged for a closer look

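Among the chromosomal neighbours, 3 genes showed an effect of *gsr-1a* that depended on the presence of *trxr-2*, by edgeR's interaction test adjusted over all genes (0.766% of all genes passed). *chca-1*, near *msp-76*, had an interaction of 2.60 on the log2 scale (SE 0.36, edgeR adjusted p = 0.00496): *gsr-1a* differed from wild type by -0.17, and the double mutant from *trxr-2* by 2.44. *C25F9.5*, near *srw-85*, had an interaction of 1.65 (SE 0.31, edgeR adjusted p = 0.0348), with differences of 0.05 and 1.7. *Y43F8B.14*, near *srw-85*, had one of 2.95 (SE 0.59, edgeR adjusted p = 0.0432), with differences of 0.04 and 2.99, on counts of at most 7 in any library of the other 3 strains and 21 to 38 in the double mutant.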

How the results depend on the processing

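The 4 genes were picked as higher than wild type, so a positive sign, kept under all 20 alternatives, is no test. The fitted difference of the mutant mean was 0.923 to 1.11 for *pct-1* (lowest on library totals without TMM) and 1.18 to 1.5 for *scb-1*. For *msp-76* it was 6.89 to 9.56, lowest without all 4 libraries of replicate 1. The highest value came without replicate 3 of wild type, which holds 6 of the 7 wild-type counts of *msp-76*. Over the fits that leave out 1 library, the double mutant differed from the single mutants by 1.34 to 1.86 for *msp-76*, 1.24 to 1.75 for *srw-85* and -0.018 to 0.26 for *scb-1*, which turned negative without replicate 1 of the double mutant. Between *gsr-1a* and *trxr-2* these fits gave 0.01 to 0.12 for *pct-1*, -0.999 to 0.027 for *srw-85* and -0.30 to 0.10 for *scb-1*, with the sign turned for *srw-85* without *gsr-1a* replicate 3 and for *scb-1* without *trxr-2* replicate 1. For *pct-1* it was -0.013 with a filter of more than 1 CPM in 3 libraries and -0.013 without all 4 libraries of replicate 1, where *scb-1* was 0.04. Without those 4 libraries *srw-85* missed the threshold in the double mutant against the single mutants (1.28, edgeR adjusted p = 0.0537).

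Of the 4 genes, DESeq2, the likelihood ratio test and the fit with no filter on low counts called 2, *msp-76* and *srw-85*, for any difference among the mutants, and fits without 1 library called 0 to 2. Genes called against wild type in the mean of the mutants numbered 449 higher and 311 lower with DESeq2, 390 and 326 with the likelihood ratio test, 121 and 402 without all 4 libraries of replicate 1, and 11 lower on library totals without TMM. Fits without 1 library gave 4 to 59 higher and 3 to 171 lower, most without replicate 1 of *trxr-2*. Genes with wild type alone apart numbered 15 higher and 20 lower with DESeq2, 16 and 31 with the likelihood ratio test, 1 higher on library totals without TMM, where *pct-1* and *scb-1* were not among them, 2 lower with no filter, and 19 lower without all 4 libraries of replicate 1. They numbered 1 to 5 higher and 0 to 22 lower in fits without 1 library. *pct-1* remained among them in all 12 of these and *scb-1* in 10, the exceptions being without replicate 2 and without replicate 3 of wild type. Both genes were picked by their difference from wild type, so this is a description and no test. Among the neighbours, 1 was called in *trxr-2* with DESeq2 and with the likelihood ratio test and 2, *T19C4.1* and *act-2*, without all 4 libraries of replicate 1. None was called in fits without 1 library (0 to 0). With 25 nearest genes on each side, 46 of 200 were called in the double mutant.

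With the replicate number as a block, *msp-76* and *srw-85* differed between the double and the single mutants by 1.60 and 1.41 (edgeR adjusted p = 0.00358 and 0.0370), and no call of the 4 genes changed. The numbers are not known to mark a shared batch: 9 of 18 same-numbered pairs had deviations correlated above 0.1 (range -0.08 to 0.54), and 0 of 12 libraries correlated best with their own number throughout. The low counts of *srw-85* and the 7 wild-type counts of *msp-76* limit the precision of their ratios.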
